A study of Mus musculus with 6 samples.

Results

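Translation initiation factors are the proteins that bring the initiator tRNA, the messenger RNA and the ribosomal subunits together at a start codon. Their genes were examined in RNA-seq counts of primary wild-type mouse myeloid cells, in 3 libraries of cells treated with TMAO and 3 control libraries, all labelled 24 h. TMAO (trimethylamine N-oxide) is a metabolite made in the liver from a product of gut bacteria; the dose is not given in the labels used here. The labels describe the treated columns as T-BMDM and the untreated ones as Control, and do not say why the names differ, so a possible difference in cell source and the effect of TMAO cannot be told apart. Nor do they tie replicates to separate animals or cultures, and the p-values cover the spread of these libraries alone, possibly a technical one. The members were the protein-coding mouse symbols that begin with Eif and a digit from 1 to 6. The 4 eIF2 kinase genes (Eif2ak1 to Eif2ak4) and the 3 sex-linked genes Eif2s3x, Eif2s3y and Eif1ax were left out. That left 47 genes of 25751 in the table, and Eif4e1b, which also fits the rule, had no row in it under its gene ID. All 47 passed the filter on low counts, as did 14626 genes in all.

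In outline, eIF2 carries the initiator tRNA to the small ribosomal subunit and eIF2B reloads eIF2 with GTP. The large complex eIF3 holds the assembly together. The eIF4 factors bind the cap of the messenger RNA (eIF4E), bridge it to the ribosome (eIF4G) and unwind its leader (eIF4A with eIF4B and eIF4H), and eIF5 and eIF5B complete the joining of the subunits. In macrophages, cap-dependent initiation is under the control of the kinase mTOR, which phosphorylates the eIF4E-binding proteins, and of kinases that phosphorylate eIF2 under stress. RNA levels do not report on these phosphorylation steps.

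The promoters of Eif4a1, Eif4a2 and Eif4e are shown because Eif4a1 and Eif4a2 encode closely related helicases whose RNAs moved in opposite directions, and Eif4e rose with Eif4a1. Each run is the 250 bases before a start site in RefSeq, on the gene's own strand, at chr11:69672424-69672673 (minus strand), chr16:23107218-23107467 (plus strand) and chr3:138527018-138527267 (plus strand) of build GRCm38, an older build than the authors' GRCm39. Capitals mark CACGTG, the E-box that MYC and its relatives bind. It reads the same on both strands. Eif4e has 2 starts in RefSeq, and the one shown has the motif while the other has none; Eif4a1 and Eif4a2 have 1 start each.
Eif4a1: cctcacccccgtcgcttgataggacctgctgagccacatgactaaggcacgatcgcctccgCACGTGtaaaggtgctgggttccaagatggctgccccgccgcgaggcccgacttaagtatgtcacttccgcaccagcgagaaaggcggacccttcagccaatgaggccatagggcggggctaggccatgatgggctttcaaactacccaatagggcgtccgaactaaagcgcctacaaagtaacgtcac
Eif4a2: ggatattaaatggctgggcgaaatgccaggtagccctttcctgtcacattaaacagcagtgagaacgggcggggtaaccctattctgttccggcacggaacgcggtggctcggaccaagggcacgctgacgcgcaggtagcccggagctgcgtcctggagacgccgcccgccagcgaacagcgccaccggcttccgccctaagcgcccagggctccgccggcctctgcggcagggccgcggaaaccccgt
Eif4e: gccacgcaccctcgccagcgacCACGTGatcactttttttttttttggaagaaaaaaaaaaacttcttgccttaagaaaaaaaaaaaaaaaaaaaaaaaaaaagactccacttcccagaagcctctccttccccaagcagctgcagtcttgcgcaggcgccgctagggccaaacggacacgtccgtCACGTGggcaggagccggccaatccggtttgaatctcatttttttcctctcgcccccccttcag
RefSeq windows were found for 36 of the 47 genes. CACGTG stood in the window of at least 1 start in 9 of them (25.0%), and in 9.77% of the 10250 tested genes with a window. It was found in 7 of 24 genes that rose, 1 of 6 that fell (Eif5a2) and 1 of 6 that did not pass the test (Eif4g1). Eif5a and Eif5a2, paralogues whose RNAs also moved in opposite directions, both had it. Presence of the letters is a description and was not tested as a binding site.

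Most of the initiation factor genes were higher with TMAO. By the quasi-likelihood test of edgeR, with p-values adjusted over all genes, 32 of 47 rose (68.1%), 7 fell (14.9%) and 8 did not pass an adjusted p of 0.05. Over all genes tested the response was broad and balanced, with 65.7% of genes called, 33.0% higher and 32.7% lower. The median log2 fold change (TMAO over control) was 0.58 over the members and 0.01 over all genes tested. At least 2-fold changes were found in 11 members that rose and 1 that fell, against 15.7% and 14.7% of all genes tested (30.4% in either direction). Tested against a fold of 1.5 rather than 0 change, 18 members were higher and 2 lower, against 18.0% and 17.5% of all genes. In 34 members every TMAO library lay above every control library and in 8 every TMAO library lay below, against 35.6% and 35.4% of all genes tested (71.0% in either direction). The plot of the fold changes by complex shows where the calls lay. In the eIF4 groups 40.0% rose and 33.3% fell, shares near those of all genes tested. That likeness depended on transcript length. With the trend on transcript length removed, 8 of these 15 genes were higher and 3 lower, against 34.4% and 31.4% of all genes tested. Their median log2 fold change was then 0.58, against 0.17 with the trend. In TPM, a share of all transcripts that takes transcript length into account, the 47 genes summed to 9410 ± 88.3 in TMAO and 5770 ± 28.3 in control libraries (SD, n = 3 each). The 3 most abundant, Eif1, Eif5a and Eif4a1, made up 4061 ± 237 TPM in TMAO and 1592 ± 54.5 TPM in control libraries. The other 44 summed to 5349 ± 150.3 TPM with TMAO and 4178 ± 56.6 TPM in controls.

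**Figure D1:**
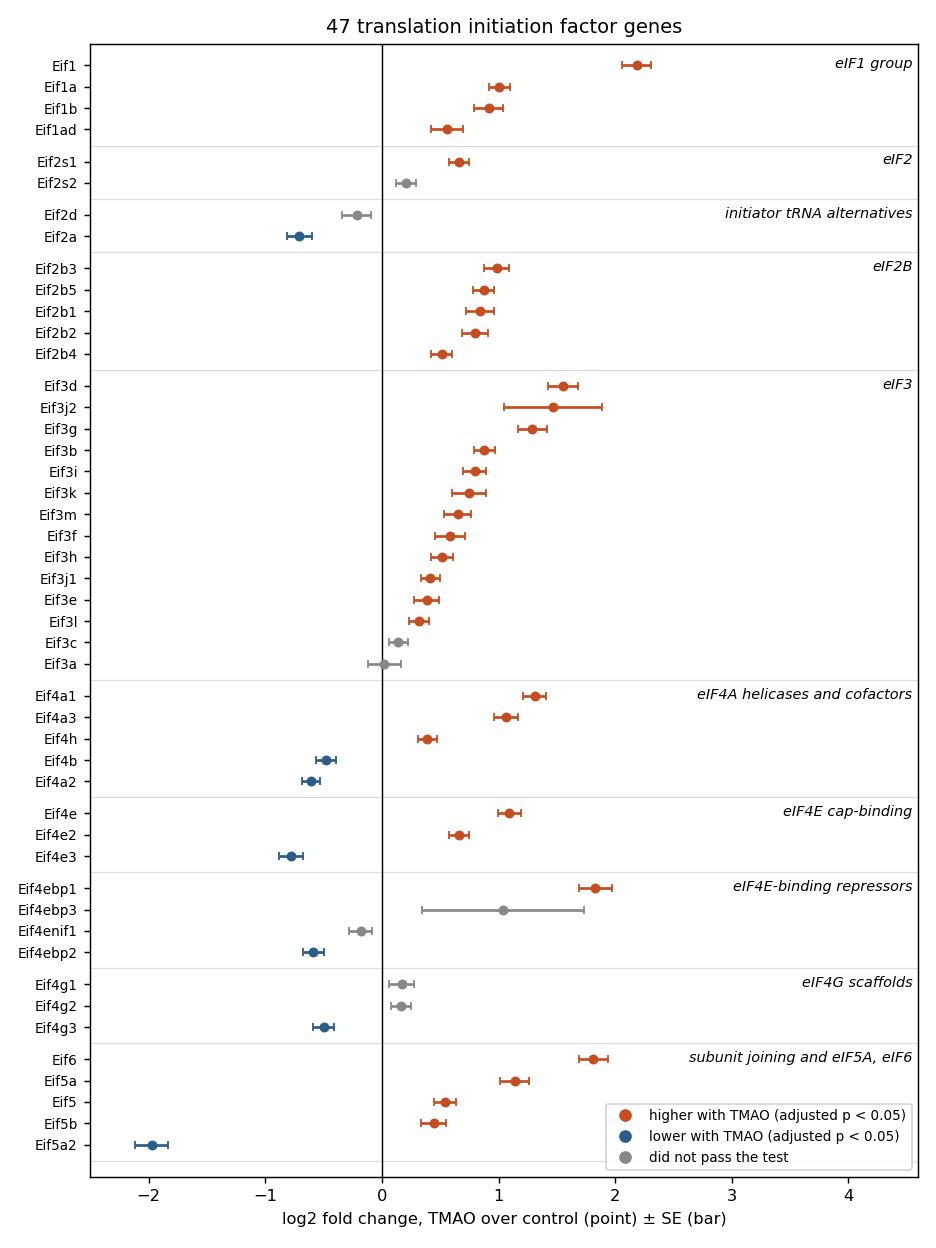
Log2 fold change of each of the 47 genes, TMAO over control (points), with its standard error (bars), grouped by complex. Colours give the edgeR call. All 5 eIF2B genes and 12 of 14 eIF3 genes lie to the right among the called genes, while the eIF4 groups hold called genes on both sides.

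Library totals ran from 37759007 to 41735109 counts, and the member with the fewest reads, Eif4ebp3, had 45, 3 and 23 counts in TMAO libraries, against 9, 17 and 10 counts in control libraries. CPM is counts scaled to library size. Markers of other cell types moved between the same groups. Of 15 neutrophil and precursor markers 14 rose and 1 (Csf3r) fell, with a summed level of 4284 to 5598 CPM in TMAO and 247 to 284 CPM in control libraries, none at 0 in every library of a group. Of 8 monocyte markers 7 rose (1262 to 1336 CPM summed with TMAO, 424 to 513 CPM in controls, none at 0). All 10 mitosis genes rose (329 to 389 CPM summed with TMAO, 47.3 to 50 CPM in controls, none at 0), and 5 of 6 B cell markers rose (11.7 to 15.8 CPM summed with TMAO, 2.44 to 3.58 CPM in controls, with Pax5 at 0 in controls). Of 6 T and NK cell markers 2 could be tested, and Nkg7 rose and Cd4 fell (3.71 to 5.32 CPM summed with TMAO, 10.5 to 12.6 CPM in controls, with Cd3e at 0 in TMAO and Nkg7, Ncr1 and Cd3g at 0 in control libraries). Of 10 macrophage markers 4 rose and 5 fell (39309 to 48136 CPM summed with TMAO, 43812 to 48544 CPM in controls, none at 0). Most of that sum was Lyz2, at 37357 ± 4499 CPM with TMAO and 37023 ± 2335 CPM in controls. C1qa, C1qb, Mrc1 and C1qc rose, with log2 fold changes of 0.75, 0.67, 0.34 and 0.22, and Cd68 and Csf1r fell (-0.81 and -0.28). With the trend on transcript length removed, 3 of the 10 were higher and 6 lower. C1qc and Lyz2 were among the lower (log2 fold change -0.19 and -0.38), and Csf1r was not called (-0.0024). Mertk fell to 16.3 ± 3.67 CPM with TMAO, against 162 ± 15.8 CPM in controls (9.94-fold lower), Fcgr1 to 59.9 ± 0.911 CPM with TMAO, against 251 ± 27.5 CPM in controls (4.19-fold lower), and Adgre1 to 526 ± 67.3 CPM with TMAO, against 1705 ± 56.6 CPM in controls (3.24-fold lower). In bulk RNA, a change in the number of cells of a type and a change in RNA per cell cannot be told apart. The part of these cell types in the changes below was not tested.

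The genes of the factors that help the ribosome scan for the start codon rose. Eif1, the factor that keeps the scanning ribosome from starting at the wrong codon, had 980.3, 1297 and 1141 CPM in TMAO libraries, against 226, 277 and 249 CPM in control libraries. Its level rose 4.54-fold (log2 fold change 2.18, SE 0.12, edgeR adjusted p = 2.44e-07), the largest rise among the 47 genes. Eif1b, a close copy of Eif1, had 52.1, 71.3 and 63.9 CPM in TMAO libraries, against 32.9, 35.7 and 30.5 CPM in control libraries, and its log2 fold change was smaller (log2 fold change 0.92, SE 0.12, edgeR adjusted p = 9.11e-05). The autosomal Eif1a, a copy of the scanning factor eIF1A, had 180.5, 203 and 173 CPM in TMAO libraries, against 88.1, 94.7 and 94.0 CPM in control libraries (log2 fold change 1.01, SE 0.09, edgeR adjusted p = 5.45e-06). Every TMAO library lay above every control library for these genes, and the TMAO libraries with the lowest and highest Eif1 were replicates 1 and 2. Eif1ad, a relative of eIF1A by sequence, also rose (log2 fold change 0.56, SE 0.14, edgeR adjusted p = 0.00426). So all 4 genes of the eIF1 group rose and none fell, also by unadjusted edgeR p, DESeq2 or limma-voom. The TPM ratio of Eif1 to Eif1b was 14.7, 14.2 and 14.0 in TMAO libraries, against 5.38, 6.08 and 6.38 in control libraries.

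Of the 2 genes of eIF2, the carrier of the initiator tRNA, 1 rose. Eif2s1 encodes the alpha subunit, the one phosphorylated under stress, and had 138, 126 and 140.0 CPM in TMAO libraries, against 81.7, 84.2 and 88.8 CPM in control libraries (log2 fold change 0.66, SE 0.09, edgeR adjusted p = 6.47e-05). The beta subunit gene Eif2s2 had 172, 166 and 149 CPM in TMAO libraries, against 135, 139.7 and 148 CPM in control libraries, and the groups did not overlap, but it missed the threshold (log2 fold change 0.20, SE 0.09, edgeR adjusted p = 0.0597). It passed by DESeq2, by 3 other choices of scaling or filter, without TMAO replicate 3 and with the trends on length or GC content removed (log2 fold change 0.16 to 0.61 over all alternatives). The gamma subunit genes were outside the set. The genes of 2 proteins that can deliver initiator tRNA without eIF2 were also measured. Eif2a, which does so on selected messenger RNAs, fell, with 56.6, 46.5 and 43.0 CPM in TMAO libraries, against 78.9, 80.6 and 79.1 CPM in control libraries (log2 fold change -0.71, SE 0.11, edgeR adjusted p = 0.000225). Eif2d, known for re-initiation after short reading frames, had 15.0, 18.8 and 15.2 CPM in TMAO libraries, against 18.4, 20.9 and 17.7 CPM in control libraries and missed the threshold (log2 fold change -0.22, SE 0.13, edgeR adjusted p = 0.151). Without TMAO replicate 2 it was called lower (-0.33, edgeR adjusted p = 0.0324), as it was with the replicate block and the GC trend removed (-0.27; range of adjusted p over the alternatives 0.0324 to 1). In that pair no gene rose, also by unadjusted edgeR p, DESeq2 or limma-voom.

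All 5 subunits of eIF2B rose, between 1.43-fold and 1.98-fold, and none fell by edgeR (also none by unadjusted p, DESeq2 or limma-voom). This is the exchange factor that phosphorylated eIF2 blocks. Eif2b5 encodes the catalytic epsilon subunit and had 89.0, 89.2 and 96.0 CPM in TMAO libraries, against 48.8, 53.6 and 47.5 CPM in control libraries (log2 fold change 0.87, SE 0.09, edgeR adjusted p = 1.28e-05). Its partner in the catalytic part, Eif2b3 (gamma), had the highest fold change of the 5, with 23.2, 27.4 and 24.3 CPM in TMAO libraries, against 12.7, 12.8 and 12.4 CPM in control libraries (log2 fold change 0.99, SE 0.11, edgeR adjusted p = 1.97e-05). Of the regulatory subunits, Eif2b2 (beta) had 61.8, 72.5 and 68.0 CPM in TMAO libraries, against 40.8, 42.2 and 33.5 CPM in control libraries (log2 fold change 0.80, SE 0.11, edgeR adjusted p = 0.000116). Eif2b1 (alpha) and Eif2b4 (delta) rose 1.79-fold and 1.43-fold (SE of the log2 fold change 0.12 and 0.09), and neither had overlapping groups. Eif2b4 had the lowest log2 fold change of the 5 (0.51, and 0.28 with the length trend removed), and was not called against a fold of 1.5 (edgeR adjusted p = 0.813; range over the alternatives 3.05e-06 to 0.813). Per transcript length the 5 genes stood in the same order in both groups, from 85.7 TPM (Eif2b2) to 13.6 TPM (Eif2b3) with TMAO and from 56.9 TPM to 7.93 TPM in controls. In the regulators of eIF2, a list of 12 genes of which 11 were found by symbol, 1 rose and 4 fell (9.09% and 36.4%, against 33.0% and 32.7% of all genes tested). With the trend on transcript length removed 3 were higher and 4 lower, and the median log2 fold change was 0.15, against -0.07 with it. The phosphatase subunit gene Ppp1r15a, which directs removal of the phosphate from eIF2, averaged 239 ± 10.6 CPM with TMAO and 37.5 ± 1.52 CPM in controls (log2 fold change 2.67, SE 0.09, edgeR adjusted p = 7.84e-09). The kinase gene Eif2ak2 (PKR), which double-stranded RNA activates and interferon induces, averaged 24.5 ± 2.90 CPM with TMAO and 90.3 ± 12.3 CPM in controls (log2 fold change -1.88, SE 0.13, edgeR adjusted p = 8.28e-07). Dnajc3, an inhibitor of these kinases, fell by 0.56 on the log2 scale (edgeR adjusted p = 0.00013), and had a log2 fold change of -0.21 with the length trend removed.

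**Figure D2:**
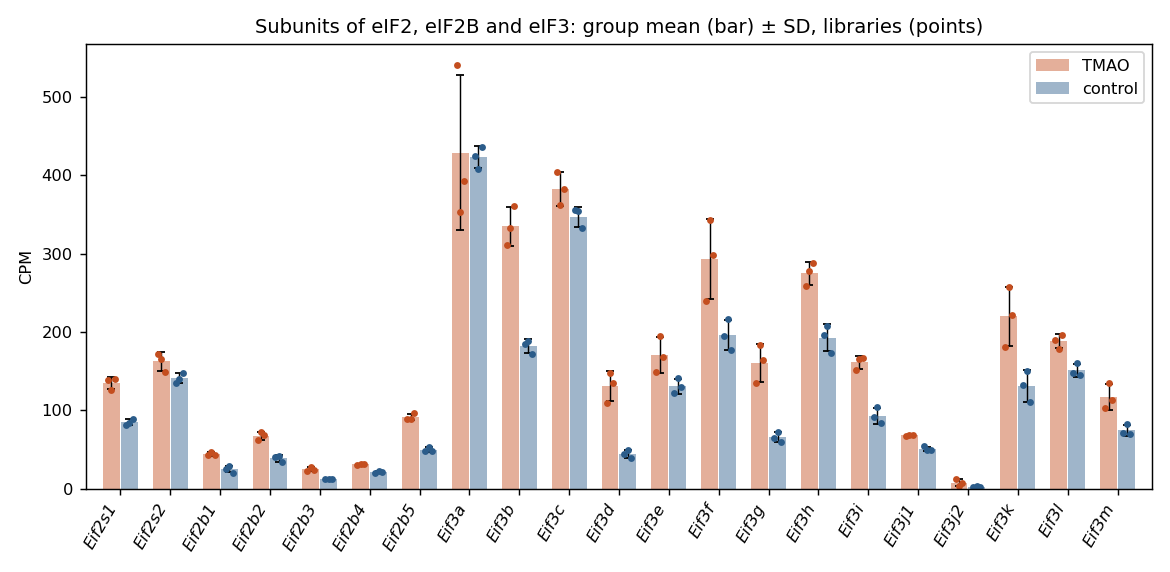
CPM of the subunit genes of eIF2, eIF2B and eIF3. Bars are means of 3 libraries with the SD, and points are the libraries, TMAO at left and control at right of each pair. TMAO libraries lie above control libraries except for Eif3a, whose TMAO points spread from 353 to 540 CPM, and Eif3j2.

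Of the 14 genes for subunits of eIF3, 12 rose, 2 did not pass the test and none fell by edgeR (none also by unadjusted p, DESeq2 or limma-voom). The complex helps recruit the messenger RNA to the small subunit. The median log2 fold change was 0.62. Eif3d, a subunit that can itself bind the cap of selected messenger RNAs, rose most, with 109.8, 147 and 135 CPM in TMAO libraries, against 44.7, 49.9 and 39.0 CPM in control libraries (log2 fold change 1.55, SE 0.13, edgeR adjusted p = 3.34e-06). Eif3g, an RNA-binding subunit, had 135, 183 and 164 CPM in TMAO libraries, against 65.3, 72.2 and 59.5 CPM in control libraries (log2 fold change 1.29, SE 0.12, edgeR adjusted p = 8.38e-06), and the scaffold subunit gene Eif3b had 311, 333 and 360.4 CPM in TMAO libraries, against 185, 189 and 172 CPM in control libraries (log2 fold change 0.88, SE 0.09, edgeR adjusted p = 1.16e-05). In all 3 genes the groups did not overlap. Eif3i, a partner of Eif3b, rose 1.74-fold.

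The rises were uneven within the complex. Known structures divide eIF3 into an octamer of subunits a, c, e, f, h, k, l and m and the more peripheral subunits b, d, g and i, a division applied here after the values were seen and not tested. The 4 peripheral genes had log2 fold changes of 0.80 to 1.55, and the 8 octamer genes of 0.02 to 0.75. With the trend on transcript length removed, these ranges were 0.65 to 1.46 and 0.12 to 0.57. With the trend on GC content removed they overlapped, at 0.68 to 1.51 and 0.14 to 1.04, with Eif3m and Eif3e (0.87) at the top of the octamer. Among the octamer genes, Eif3k, Eif3m, Eif3f, Eif3h, Eif3e and Eif3l rose, with log2 fold changes of 0.75, 0.65, 0.58, 0.51, 0.38 and 0.32. Without control replicate 1, Eif3e was not called (0.33, edgeR adjusted p = 0.0609; range over the alternatives 4.46e-06 to 1). Eif3l was not called with the replicate block and the length trend removed (0.18, edgeR adjusted p = 0.0608; range over the alternatives 0.000982 to 1). Eif3c had 404, 361 and 382 CPM in TMAO libraries, against 355, 354 and 332 CPM in control libraries and missed the threshold (log2 fold change 0.14, SE 0.08, edgeR adjusted p = 0.159). Eif3a, the largest subunit and the core of the complex, had 540.2, 353 and 393 CPM in TMAO libraries, against 425, 408 and 436 CPM in control libraries (log2 fold change 0.02, SE 0.14, edgeR adjusted p = 0.91). The highest and lowest Eif3a values both came from TMAO libraries, replicates 1 and 2, and without TMAO replicate 1 its log2 fold change was -0.18. The loosely bound subunit j has a pair of near-identical genes whose reads may have been split in counting. Eif3j1 rose 1.33-fold, and Eif3j2, at 6.97 TPM with TMAO and 2.79 TPM in controls, passed the test while its groups overlapped (log2 fold change 1.47, SE 0.42, edgeR adjusted p = 0.0102). Per transcript length, Eif3h was the most abundant subunit RNA in both groups (434 TPM with TMAO, 350 TPM in controls), and apart from subunit j the least abundant was Eif3e with TMAO (84.3 TPM) and Eif3d in controls (41.1 TPM).

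The helicase genes Eif4a1 and Eif4a2 moved in opposite directions. Eif4a1 (ENSMUSG00000059796), the main helicase of cap-dependent initiation, rose, with 1595, 1843 and 1746 CPM in TMAO libraries, against 680.5, 771 and 639.5 CPM in control libraries (log2 fold change 1.31, SE 0.10, edgeR adjusted p = 1.91e-06). Eif4a2 (ENSMUSG00000022884), its close paralogue, fell, with 164, 159.6 and 148 CPM in TMAO libraries, against 235, 239 and 243 CPM in control libraries (log2 fold change -0.61, SE 0.08, edgeR adjusted p = 7.98e-05). Neither pair of groups overlapped. Eif4a2 had a log2 fold change of -0.26 with the GC trend removed, and was not called against a fold of 1.5. The TPM ratio of Eif4a1 to Eif4a2 was 8.32, 9.87 and 10.1 in TMAO libraries, against 2.47, 2.76 and 2.25 in control libraries. Groups of 3 libraries cannot give a two-sided exact permutation p under 0.1, which is the value for this and for each other ratio of paralogues given here. Reads of Eif4a1 may be shared with the pseudogene Eif4a-ps4, which had 238 ± 8.80 CPM in TMAO and 146 ± 5.22 CPM in control libraries and so rose with Eif4a1. Eif4a3, a more distant relative, serves the exon junction complex, and had 145, 159.8 and 162 CPM in TMAO libraries, against 71.6, 84.0 and 67.5 CPM in control libraries (log2 fold change 1.07, SE 0.10, edgeR adjusted p = 8.49e-06). The cofactors of eIF4A divided as well. Eif4h rose (log2 fold change 0.39, SE 0.08, edgeR adjusted p = 0.00158) and Eif4b fell to 236 ± 12.1 CPM with TMAO, against 329 ± 14.3 CPM in controls (log2 fold change -0.48, SE 0.08, edgeR adjusted p = 0.000482). Of the 15 eIF4 genes together, 6 rose, 5 fell and 4 did not pass the test.

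Among the cap-binding proteins, Eif4e rose and Eif4e3 fell. Eif4e (ENSMUSG00000028156) encodes the limiting cap-binding subunit and had 164, 179 and 159.5 CPM in TMAO libraries, against 75.0, 87.2 and 73.4 CPM in control libraries (log2 fold change 1.09, SE 0.10, edgeR adjusted p = 5.13e-06). Eif4e2, whose protein binds the cap without eIF4G and is known as a repressor, rose as well, with 126, 146 and 144 CPM in TMAO libraries, against 87.7, 86.6 and 89.2 CPM in control libraries (log2 fold change 0.66, SE 0.09, edgeR adjusted p = 8.27e-05). Eif4e3 had 16.4, 14.0 and 15.2 CPM in TMAO libraries, against 26.4, 26.3 and 25.6 CPM in control libraries and fell (log2 fold change -0.78, SE 0.10, edgeR adjusted p = 7.43e-05). The TPM ratio of Eif4e to Eif4e2 was 0.904, 0.854 and 0.768 in TMAO libraries, against 0.595, 0.701 and 0.572 in control libraries. Against Eif4e3 it was 5.02, 6.46 and 5.29 in TMAO libraries, against 1.43, 1.67 and 1.44 in control libraries.

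The genes of the main eIF4E-binding proteins, which hold eIF4E away from eIF4G unless mTOR phosphorylates them, moved in opposite directions. Eif4ebp1 (ENSMUSG00000031490), also a known target of the stress factor ATF4, had 148, 210.2 and 177 CPM in TMAO libraries, against 48.6, 57.8 and 43.8 CPM in control libraries (log2 fold change 1.83, SE 0.14, edgeR adjusted p = 2.25e-06). Eif4ebp2 (ENSMUSG00000020091) had 78.6, 68.5 and 75.7 CPM in TMAO libraries, against 116, 104 and 115 CPM in control libraries (log2 fold change -0.59, SE 0.09, edgeR adjusted p = 0.000234). The first rose and the second fell, and neither had overlapping groups. The TPM ratio of Eif4ebp1 to Eif4ebp2 was 5.44, 8.88 and 6.76 in TMAO libraries, against 1.21, 1.61 and 1.11 in control libraries. With the trend on transcript length removed, Eif4ebp2 was no longer called (log2 fold change -0.16, edgeR adjusted p = 0.0594; range over the alternatives 3.69e-08 to 0.454). Set against Eif4e in TPM, Eif4ebp1 stood at 2.26, 2.93 and 2.77 in TMAO libraries, against 1.62, 1.66 and 1.49 in control libraries, and Eif4ebp2 at 0.415, 0.330 and 0.410 in TMAO libraries, against 1.34, 1.03 and 1.35 in control libraries. These ratios hold the trend on transcript length. With it removed, the log2 fold changes of Eif4ebp1 and Eif4e lay closer together, at 1.59 and 1.42, against 1.83 and 1.09 as tested. Eif4ebp3 was very low, with 1.14, 0.0825 and 0.600 CPM in TMAO libraries, against 0.232, 0.411 and 0.242 CPM in control libraries, its groups overlapped, and it missed the threshold (log2 fold change 1.04, SE 0.70, edgeR adjusted p = 0.212). Without TMAO replicate 2, at 3 counts, it was called higher (1.55, edgeR adjusted p = 0.0188; range over the alternatives 0.0188 to 0.806). Eif4enif1, the eIF4E transporter that carries eIF4E into the nucleus and to P-bodies, had 39.1, 33.5 and 39.5 CPM in TMAO libraries, against 44.5, 40.7 and 42.0 CPM in control libraries (log2 fold change -0.18, SE 0.10, edgeR adjusted p = 0.127), so its groups did not overlap but it missed the threshold.

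**Figure D3:**
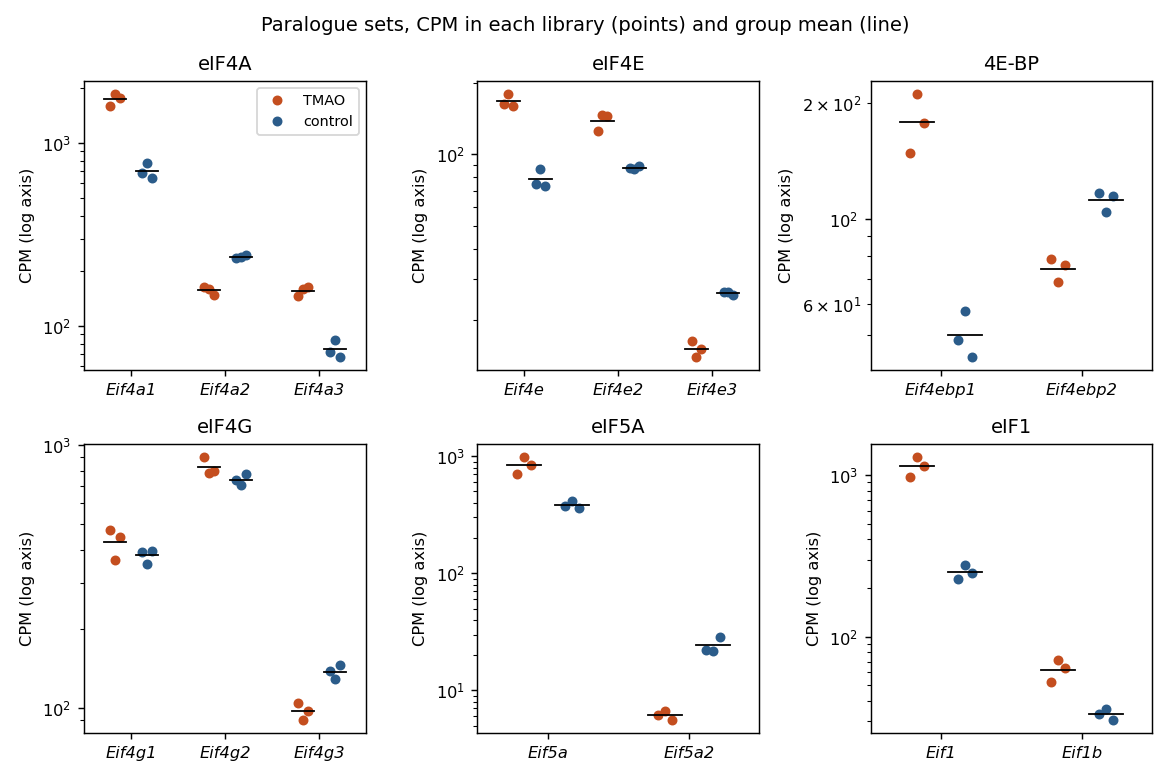
CPM of 6 sets of paralogues on log axes. Points are libraries, TMAO at left and control at right of each gene, and lines are group means. In the eIF4A, eIF4E, eIF4E-binding protein (4E-BP) and eIF5A panels, the first gene was higher and Eif4a2, Eif4e3, Eif4ebp2 and Eif5a2 were lower with TMAO.

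None of the 3 eIF4G scaffold genes, whose transcripts are long, was called higher by edgeR (none also by unadjusted p, DESeq2 or limma-voom). Eif4g1, the main scaffold, had 475, 365 and 446 CPM in TMAO libraries, against 393, 353 and 396 CPM in control libraries (log2 fold change 0.17, SE 0.11, edgeR adjusted p = 0.188). Eif4g2, a relative that lacks the eIF4E-binding part and serves cap-independent initiation, had 902, 782 and 798 CPM in TMAO libraries, against 734, 705 and 777 CPM in control libraries (log2 fold change 0.16, SE 0.09, edgeR adjusted p = 0.131). Neither passed the test, and the Eif4g1 groups overlapped because of TMAO replicate 2. Without that replicate Eif4g1 was called higher (log2 fold change 0.28, edgeR adjusted p = 0.0198; range over the alternatives 4.3e-06 to 1). Eif4g3 had 105, 90.1 and 97.3 CPM in TMAO libraries, against 139, 129 and 145 CPM in control libraries and fell (log2 fold change -0.50, SE 0.09, edgeR adjusted p = 0.000724). The TPM ratio of Eif4g1 to Eif4g3 was 6.55, 5.84 and 6.61 in TMAO libraries, against 4.09, 3.96 and 3.93 in control libraries.

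Transcript length moved with the fold change across all genes, and the calls of these scaffolds changed with it. Among genes tested, the shortest 20% had a median of 0.49 on the log2 scale and the longest 20% a median of -0.53. Among TMAO libraries, replicate 1 lay above its group in the longest genes (median deviation 0.14 on the log2 scale) and replicate 2 below (-0.09). Control libraries spread in a like way, with replicate 3 above (0.11) and replicate 2 below (-0.12). Of the 24 members with a transcript of up to 2726 bases, 21 rose and 2 fell, and of the 23 longer ones, 11 rose and 5 fell. Over all genes tested, of any length, 33.0% rose and 32.7% fell, and the shares within these length ranges were not counted. Without the trend on length, 20 shorter members were higher and 2 lower, and 16 longer ones were higher and 3 lower. With each library's trend on length removed, 36 of the 47 rose and 5 fell, against 34.4% and 31.4% of all genes tested. The median over the members was again 0.58. Eif4g1 and Eif4g2 were then called higher (log2 fold change 0.58 and 0.79, SE 0.08 and 0.07), and Eif4g2 also with the GC trend removed (0.37). Eif4g3 turned to 0.13 and was not called (edgeR adjusted p = 0.0964; range over the alternatives 3.5e-06 to 0.872). Eif3a, Eif3c and Eif2s2 were called higher in that fit and Eif3h was not called (0.12, edgeR adjusted p = 0.16; range over the alternatives 1.85e-06 to 0.802). Eif4a2, Eif4b, Eif4e3, Eif2a and Eif5a2 were lower in both fits, with log2 fold changes of -0.68, -0.34, -0.88, -0.66 and -1.64 without the trend. With the GC trend removed these genes were still called lower, at -0.26, -0.50, -0.63, -0.36 and -1.57. Against a fold of 1.5, Eif4a2, Eif4b and Eif2a were not called (edgeR adjusted p = 0.357, 0.975 and 0.117). What gives the trend on length was not tested.

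**Figure D4:**
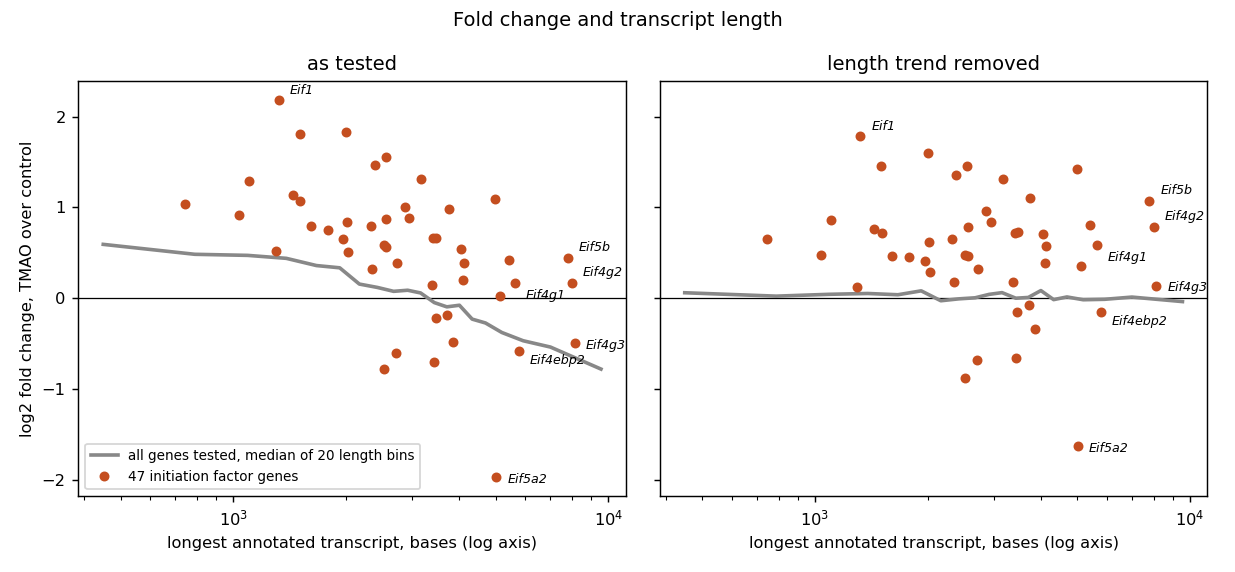
Log2 fold change, TMAO over control, against the length of the longest annotated transcript (log axis), as tested (left) and with the length trend of each library removed (right). Points are the 47 genes and the grey line is the median of all genes tested in 20 bins of length. Eif4g1, Eif4g2 and Eif5b lie above the line in both panels, and Eif4g3 crosses 0 when the trend is removed.

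Of the factors for subunit joining and the steps after it, 4 rose and 1 fell. Eif6 keeps the large subunit from joining too early and takes part in its maturation, and it had 260.5, 339.8 and 315 CPM in TMAO libraries, against 86.3, 97.9 and 76.2 CPM in control libraries (log2 fold change 1.81, SE 0.13, edgeR adjusted p = 9.33e-07). The rise was 3.51-fold, the third largest among the 47 after Eif1 and Eif4ebp1. Eif5a encodes the factor that carries the modified amino acid hypusine and helps ribosomes through stalled sequences. It had 700.5, 988 and 844 CPM in TMAO libraries, against 378, 411 and 362 CPM in control libraries (log2 fold change 1.14, SE 0.12, edgeR adjusted p = 2.01e-05). Its paralogue Eif5a2 had 6.13, 6.71 and 5.61 CPM in TMAO libraries, against 22.3, 21.7 and 28.5 CPM in control libraries, the deepest fall of the set, 3.93-fold lower (log2 fold change -1.97, SE 0.14, edgeR adjusted p = 1.26e-06). The TPM ratio of Eif5a to Eif5a2 was 399.8, 515 and 527 in TMAO libraries, against 59.5, 66.2 and 44.4 in control libraries. The genes of the enzymes that make hypusine were called higher too: Dohh averaged 11.2 ± 3.66 CPM with TMAO and 3.11 ± 0.302 CPM in controls (edgeR adjusted p = 4.57e-05), and Dhps 31.1 ± 1.87 CPM with TMAO and 25.5 ± 1.79 CPM in controls (edgeR adjusted p = 0.025). With the trend on transcript length removed, Dohh was called higher and Dhps was not (log2 fold change 1.47 and -0.10). Eif5, which triggers GTP hydrolysis on eIF2, rose 1.45-fold (log2 fold change 0.54, SE 0.09, edgeR adjusted p = 0.000486), and Eif5b, the GTPase that joins the subunits, 1.36-fold (log2 fold change 0.44, SE 0.11, edgeR adjusted p = 0.0042).

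The lists of other genes of the pathway are set against 33.0% higher and 32.7% lower over all genes tested. In the list of mTORC1 and MNK control of eIF4E and eIF4A, 3 of 14 rose and 7 fell. Akt1s1, an inhibitory subunit of mTORC1, rose (70.1 ± 5.22 CPM with TMAO, 31.7 ± 1.71 CPM in controls), while Deptor, another inhibitor, fell (5.39 ± 1.13 CPM with TMAO, 26.2 ± 6.01 CPM in controls). Mtor itself fell by 0.96 on the log2 scale (SE 0.11), and had a log2 fold change of -0.30 with the length trend removed. With the length trend removed this list had 6 genes higher and 5 lower, at a median log2 fold change of 0.03 against -0.29. In the poly(A)-binding list 2 of 5 rose, Pabpc4 (log2 fold change 0.85) and Paip2 (0.23), a share near that of all genes. With the length trend removed Pabpc4 was called higher and Paip2 was not (0.85 and -0.10). The other 3 missed the threshold, among them Paip2b (-0.15, edgeR adjusted p = 0.316). Pabpc1, the main poly(A)-binding protein gene, averaged 762 ± 37.0 CPM with TMAO and 773 ± 23.9 CPM in controls. Of 12 other initiation and recycling genes 6 rose and 2 fell, among them Denr and Bzw2, which rose with log2 fold changes of 1.09 and 0.72, and Cyfip1, which fell (-0.76). With the length trend removed, Denr, Bzw2 and Cyfip1 stood at 1.25, 0.62 and -0.27. Of 10 elongation and termination genes 6 rose and 1 fell. Eef1e1, Etf1 and Eef1b2 had log2 fold changes of 1.19, 0.75 and 1.53.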

How the data were processed

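The 47 members and all gene lists were chosen with earlier results of these data known. The file deposited by the authors holds raw counts, unscaled, for each Ensembl gene ID and library. Per the submitters' processing notes, reads were placed on GRCm39. How they were aligned and counted, and whether by strand, is not given in the sources used here, so overlapping genes and near-identical copies cannot be told apart. Per the labels' protocols, RNA was poly(A)-selected and sequenced from both ends. They name sequencers of 2 makers and assign no library to either, so a platform difference cannot be told apart from the treatment. Groups and replicate numbers came from the sample titles. Symbols, transcript lengths and GC content came from GENCODE M21 (GRCm38) by gene ID, which matched 25386 of 25751 IDs; Gcn1 was not placed.

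Genes were filtered with filterByExpr (minimum count 10), scaled by TMM and tested with edgeR 4.0.16 in R 4.3.3, TMAO against control without covariates, with Benjamini-Hochberg adjustment over 14626 genes and a threshold of 0.05. CPM uses TMM-scaled library sizes, TPM the longest transcript, and SE is the log2 fold change over the square root of F. TPM is used for order between genes, ratios and sums; the latter move with the trend on length. The test was checked on simulated data in which few genes changed and no trend on length was put in. That check does not cover the broad response and the length trend of these data. No 2 libraries of a group agreed within sampling noise (chi-square per degree of freedom 13.0 to 65.6). Members with their values in each library and full statistics are the up to 3 with the smallest p in each role and fixed sets of paralogues; other lists give the 3 with the smallest p. Pabpc1 and the macrophage markers beyond those 3 were named after their values were seen. Alternatives were DESeq2 1.42.0, limma-voom (limma 3.58.1), other scalings, filters and moderation, a test against a fold of 1.5, trends on length or GC content removed by loess, the replicate number as a block, and each library left out.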

Additional observations from a re-analysis of the deposited data

How the results depend on the processing

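Of 986 comparisons of a member under an alternative with its value as reported, 930 kept the direction and the side of the threshold. Another 25 kept the direction but were no longer called, 19 of them in the test against a fold of 1.5. A further 23 kept the direction and became called. The other 8 changed sign, whether called or not. Against a fold of 1.5, 20 members were called, 18 higher and 2 lower (5 in eIF3, 5 in the eIF4 groups with 1 lower, 0 of eIF2), and 5184 genes in all, 2630 higher and 2554 lower. Both eIF2 genes (2, all higher) were called by upper-quartile scaling, by DESeq2, with the filter of 1 CPM in 3 libraries, without the 20 most abundant genes, and after removal of the trend on length or GC content, also with the replicate block. With the length trend removed, with or without the block, 3 eIF4 genes were lower. Eif4g3 changed sign in both these fits (0.13 and 0.13) and was not called in either. Eif3a, never called lower, changed sign with library size only (-0.0049), limma-voom (-0.0037), no filter (-0.00041), the replicate block (-0.0042), and without control replicate 2 (-0.0081), and ran from -0.18 to 0.14 over the fits without 1 library. Leaving out each library gave 38 to 42 called members, 31 to 34 higher and 7 to 8 lower, with 1 to 2 for eIF2, 11 to 12 for eIF3, 11 to 13 for eIF4 (6 to 8 higher) and 8629 to 9931 genes in all. Deviations from the group mean had r = 0.0321, 0.133 and -0.0672 between same-numbered libraries. Between differently numbered ones r ran from -0.189 to 0.159. With 3 libraries a group this cannot show whether same-numbered libraries were paired. With the replicate block 32 members rose and 7 fell, and 9723 genes were called. The cause of these differences was not tested. Depth limits Eif4ebp3, at 3 to 45 counts a library.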

Other observations

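The sex-linked genes left out of the set include the third subunit of eIF2, and its copies moved in opposite directions. Eif2s3x, the X-linked gamma subunit gene, had 45.2, 24.4 and 30.7 CPM in TMAO libraries, against 72.8, 67.0 and 78.6 CPM in control libraries (log2 fold change -1.12, SE 0.19, edgeR adjusted p = 0.000402). Eif2s3y, the Y-linked copy, had 102.9, 122 and 94.9 CPM in TMAO libraries, against 52.1, 55.3 and 50.9 CPM in control libraries (log2 fold change 1.02, SE 0.11, edgeR adjusted p = 1.61e-05). The X-linked eIF1A gene Eif1ax averaged 77.5 ± 6.47 CPM with TMAO and 63.9 ± 3.16 CPM in controls (SD, n = 3 each; edgeR adjusted p = 0.022). The Y-linked genes Uty, Kdm5d and Ddx3y were lower with TMAO, with log2 fold changes of -0.96, -0.68 and -0.45, so Eif2s3y did not move with them. With the trend on transcript length removed, Eif2s3y and Eif2s3x had log2 fold changes of 1.01 and -1.03 and passed the edgeR test, as did Uty (-0.60), while Kdm5d (-0.07) and Ddx3y (-0.19) missed the threshold. Reads of the copies of Eif2s3 may have been split in counting.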
